A study of Drosophila melanogaster with 6 samples.

Results

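The regions described here carried a CrebA-GFP peak in embryos with the sage-Gal4 driver and no peak in embryos with the fkh-Gal4 driver or in Oregon R embryos. The peaks of the 3 immunoprecipitated libraries were merged where they overlapped by at least 1 bp, which gave 15071 regions, and 557 of them held a sage-Gal4 peak alone. Each of the 557 held 1 peak. They are 8.93% of the 6236 merged regions with a sage-Gal4 peak. The regions were chosen by the presence or absence of called peaks in these same libraries, so the number of regions, their heights and their absence from the other lists are descriptions of the choice, and no test is given for them.

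The series has 6 samples of Drosophila melanogaster embryos at stages 11 to 16, that is 3 ChIP-seq libraries and their input libraries, with chromatin of 2 collections fixed in 1.8% formaldehyde. The sage-GAL4::UAS-CrebA-GFP embryos expressed CrebA with a C-terminal GFP tag under sage-Gal4, and the fkh-GAL4::UAS-CrebA-GFP embryos expressed the same fusion under fkh-Gal4; in both, the fusion was precipitated with an antibody to GFP. The Oregon R embryos were wild type and carried no tagged CrebA, and their own CrebA was precipitated with an anti-CrebA antiserum. The submitters describe both drivers as active beyond the salivary gland, with that gland as their single shared tissue. The labels name no other tissue of sage-Gal4 and no insertion site of a transgene. With 1 library per group there was no replicate to check a value against, and in whole-embryo chromatin a signal from fewer cells cannot be told apart from weaker binding in each cell.

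CrebA, a bZIP factor best known from the embryonic salivary gland, activates genes of the secretory pathway. The sage gene encodes a bHLH factor of the salivary gland, and fkh encodes a FoxA-type factor of the gland and the gut. A peak is a stretch of the genome where the precipitated library has more reads than the authors' peak caller took as background. The fold enrichment at the summit and the −log10 q of each peak are the authors' own, and they serve here for description and for ranks inside 1 list. Coordinates are on dm6, and gene spans come from an NCBI RefSeq table of the same assembly, release 6, which gives the start and end of each gene without exons. No sequence is printed.

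Of the 12 highest regions, 3 had a summit within 1000 bp of a gene end, and several lay in no gene. The highest, on 3R from 24141073 to 24141405, had a fold enrichment of 2.61 and a −log10 q of 13.4, and its summit stood 186 bp from an end of Kal1, the fly counterpart of the human Kallmann syndrome gene; Npc2f, of the NPC2 family of sterol-binding proteins, also had an end within 1000 bp. The nearest Oregon R peak was 6110 bp away and the nearest fkh-Gal4 peak 21939 bp away. The second, on X from 6969279 to 6969626 with a fold of 2.56, lay within 1000 bp of ends of CG4586, CG14431 and Setd3, and an Oregon R peak stood 328 bp from it. The third, on X from 2089357 to 2090304, was inside Unc-76, which encodes an adaptor of axonal transport, with a fold of 2.50 and a width of 948 bp. These 3 ranked 449, 567 and 683 among the 7916 sage-Gal4 peaks by fold; every higher peak was in a region shared with another list.

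The next regions differed widely in their distance to the nearest gene end. One on 3L from 6856318 to 6856698, with a fold of 2.40, had its nearest gene end 55494 bp away at Prat2, an enzyme of purine synthesis. A region on 3L from 24792305 to 24792736, with a fold of 2.35, was 34467 bp from scro, an NK2-type homeobox gene, with no Oregon R peak within 68233 bp and no fkh-Gal4 peak within 136692 bp. Others were inside CG1607 (2.30), CG17684 (2.28) and CG10947 (2.27), and inside tna (2.25), a gene that interacts with the Brahma chromatin remodelling complex. In that order, their summits were 2149, 160361, 14126 and 2614 bp from the nearest gene end. A region on Y from 2038163 to 2038386 had a fold of 2.28, with Ppr-Y as the nearest gene at 153416 bp. The list of 12 ended with a region 4741 bp from CG43401 (2.23) and one on X from 20656959 to 20657382 at Cyp6v1, a cytochrome P450 gene, with its summit 49 bp from a gene end and a fold of 2.21.

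As a set, the 557 were low and narrow among the sage-Gal4 regions. Their median fold was 1.71 (quartiles 1.63 and 1.83, lowest 1.41), and their median −log10 q was 3.07. The median width was 219 bp, and 8 of them (1.44%) had the smallest width in the list, 147 bp, as did 46 of all sage-Gal4 peaks (0.581%). For the strongest sage-Gal4 peak of a region the median fold was 1.88 in the 488 regions found with both drivers but not in Oregon R, 1.77 in the 1711 regions shared with Oregon R but not fkh-Gal4, and 2.1 in the 3480 regions of all 3 lists. In the same order, the median widths of these peaks were 352, 288 and 673 bp. A −log10 q of at least 10 was reached by 4 of the 557 (0.718%), against 1371 of the 3480 regions of all 3 lists (39.4%). Low and narrow peaks were not particular to sage-Gal4. In their own list, the 641 fkh-Gal4-only regions had a median width of 219 bp and a median −log10 q of 2.82, and 0 reached 10.

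The share of sage-Gal4 regions without a partner depended on height. At a −log10 q from 1.3 to 2 it was 22.9% (64 of 280, exact 95% interval 18.1 to 28.2%), and at 2 to 3 it was 23.4% (207 of 884). It was 15.9% at 3 to 4, 7.27% at 4 to 5, 6.61% at 5 to 7, 2.27% at 7 to 10 and 0.268% at 10 or more (4 of 1490). Intervals here and below are exact Clopper-Pearson intervals and cover counting error over regions only. By deciles of fold over all sage-Gal4 peaks, counted from the highest, 3 of the 557 were in decile 1, 8 in decile 2, 113 in decile 8 and 71 in decile 10.

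**Figure D1:**
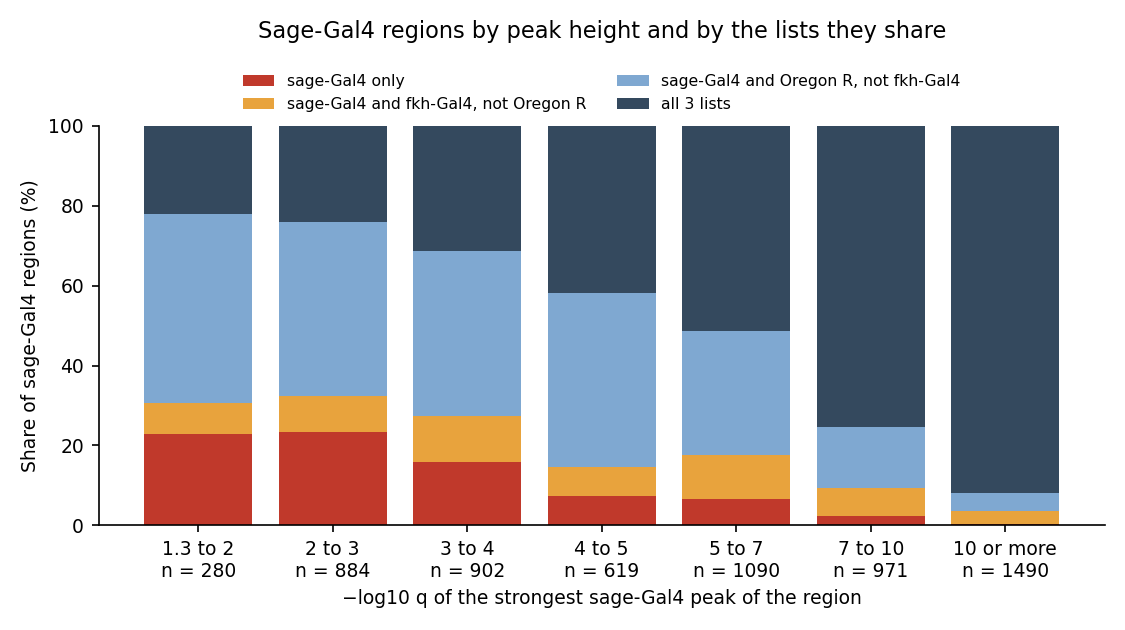
Share of the merged regions with a sage-Gal4 peak (vertical axis, %) that were in each combination of lists, by the −log10 q of their strongest sage-Gal4 peak (horizontal axis, with the number of regions in each bin). The sage-Gal4-only part is 22.9% in the lowest bin and 0.268% in the highest.

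The rule turns on an overlap of 1 bp, and regions stood on either side of that limit. Just inside it, a region of 278 bp within EcR, the ecdysone receptor gene, on 2R from 6116180 to 6116457 (fold 1.77), was 1 bp from an Oregon R peak, and another within EcR, on 2R from 6120954 to 6121111 (fold 1.57), was 3 bp from an Oregon R peak and 19 bp from an fkh-Gal4 peak. A region within mdy and CG13280 (1.61) and one within gpp (1.49) were each 5 bp from an Oregon R peak. Just outside it, sage-Gal4 peaks with folds of 1.71 on 3L from 780574 to 780793 and 1.86 in cv-c overlapped an Oregon R peak by 6 bp, one with a fold of 1.68 in dome overlapped by 8 bp and one with a fold of 1.45 in CG17883 by 11 bp. Of the sage-Gal4 peaks that were not members, 125 overlapped their best partner by 100 bp or less.

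Many of the 557 lay beside a peak of another list. An fkh-Gal4 or Oregon R peak stood within 100 bp of 62 regions (11.1%), within 500 bp of 179 (32.1%), within 1000 bp of 262 (47.0%) and within 5000 bp of 427 (76.7%). The median gap was 1482 bp to the nearest Oregon R peak and 4348 bp to the nearest fkh-Gal4 peak; the Oregon R list, with 14039 peaks, is longer than the fkh-Gal4 list, with 6464. The 122 regions more than 5000 bp from both lists had a median fold of 1.79 and a median width of 251 bp, and the 62 within 100 bp had a median fold of 1.65 and a median width of 205 bp. A further 8 regions were on sequences outside the chromosome arms with no peak of either list.

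**Figure D2:**
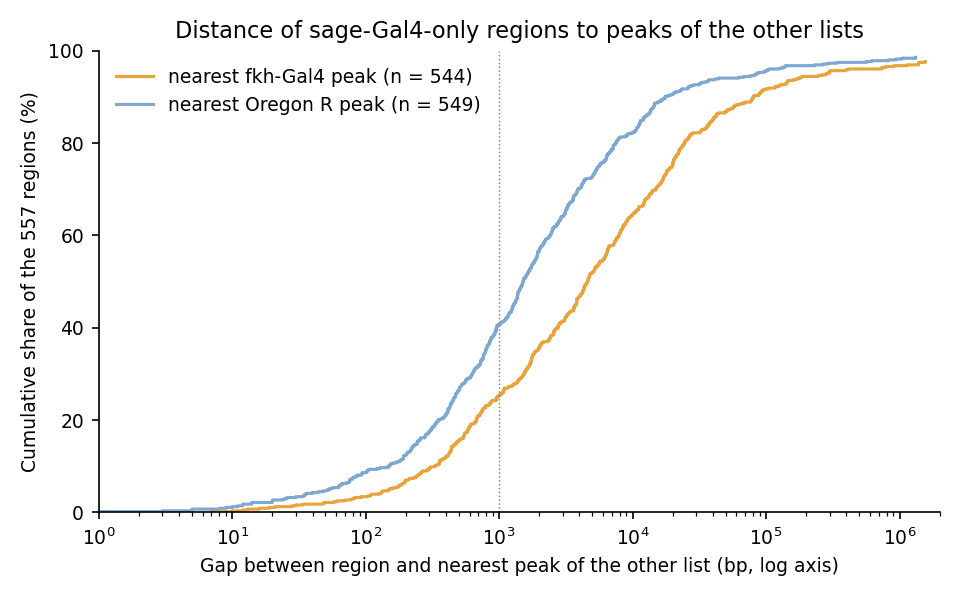
Cumulative share of the 557 regions (vertical axis, %) by the gap to the nearest peak of the fkh-Gal4 and of the Oregon R list (horizontal axis, bp, log scale; the dotted line marks 1000 bp). The Oregon R curve lies to the left of the fkh-Gal4 curve, with median gaps of 1482 and 4348 bp, and neither reaches 100% because some sequences have no peak of that list.

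Under the 1 bp rule, most of the regions were inside genes and away from gene ends. A summit within 1000 bp of the start or end of a protein-coding gene was found in 117 of 557 regions (21.0%, interval 17.7 to 24.6%). Another 349 (62.7%, 58.5 to 66.7%) were inside a gene and farther than that from any end, and 91 (16.3%) were outside genes and away from ends. The median distance to the nearest gene end was 4322 bp. The share at gene ends was 58% with a reciprocal overlap of 50% and 54.3% with summits within 150 bp as the rule, which add sage-Gal4 peaks that overlap a peak of another list, and 40.1% with a −log10 q of at least 10 in every list. Among the other regions that Oregon R lacked, 17.0% (13.8 to 20.6%) of the regions found with both drivers but not in Oregon R, and 22.9% (19.7 to 26.4%) of the 641 fkh-Gal4-only regions, were at gene ends, and their intervals overlapped that of the sage-Gal4-only regions. With a window of 2000 bp the sage-Gal4-only share was 31.8% (27.9 to 35.8%) and that of fkh-Gal4-only regions 40.4% (36.6 to 44.3%), intervals that did not overlap. In regions with an Oregon R peak the share was 65.0% (62.7 to 67.3%) where sage-Gal4 shared it, 59.7% (58.1 to 61.3%) in all 3 lists, 40.8% (36.2 to 45.5%) with fkh-Gal4 and 50.6% (49.5 to 51.7%) in Oregon R alone. These intervals did not overlap that of the sage-Gal4-only regions. Regions are not replicates and the libraries are single, so no test of the difference between conditions can be given.

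Within bins of fold, the shares at gene ends also differed between classes. Membership excludes sage-Gal4 peaks that touch an Oregon R peak, and regions with such a peak were often at gene ends. Bins of fold do not remove this link to the rule, so the shares are description only. Below a fold of 1.6, 28 of 104 sage-Gal4-only regions were at gene ends (26.9%, 18.7 to 36.5%), against 212 of 289 regions shared with Oregon R but not fkh-Gal4 (73.4%, 67.9 to 78.4%). In the same bin it was 2 of 38 regions found with both drivers but not in Oregon R (5.26%, 0.644 to 17.7%), and in the higher bins the intervals of these classes overlapped. Among regions whose strongest sage-Gal4 peak had a fold of 1.6 to 1.8, 59 of 287 sage-Gal4-only regions were at gene ends (20.6%, 16.0 to 25.7%), against 424 of 685 regions shared with Oregon R but not fkh-Gal4 (61.9%, 58.1 to 65.5%). From 1.8 to 2.0 the shares were 19.8% (12.9 to 28.5%) and 64.4% (59.9 to 68.7%), and from 2.0 upward 14.5% (6.50 to 26.7%) and 65.3% (59.3 to 71.0%). Nearness to a peak of another list moved with placement: 33.9% of the 62 regions within 100 bp of such a peak were at gene ends (22.3 to 47.0%), compared with 10.7% of the 122 that were more than 5000 bp away (5.80 to 17.5%).

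**Figure D3:**
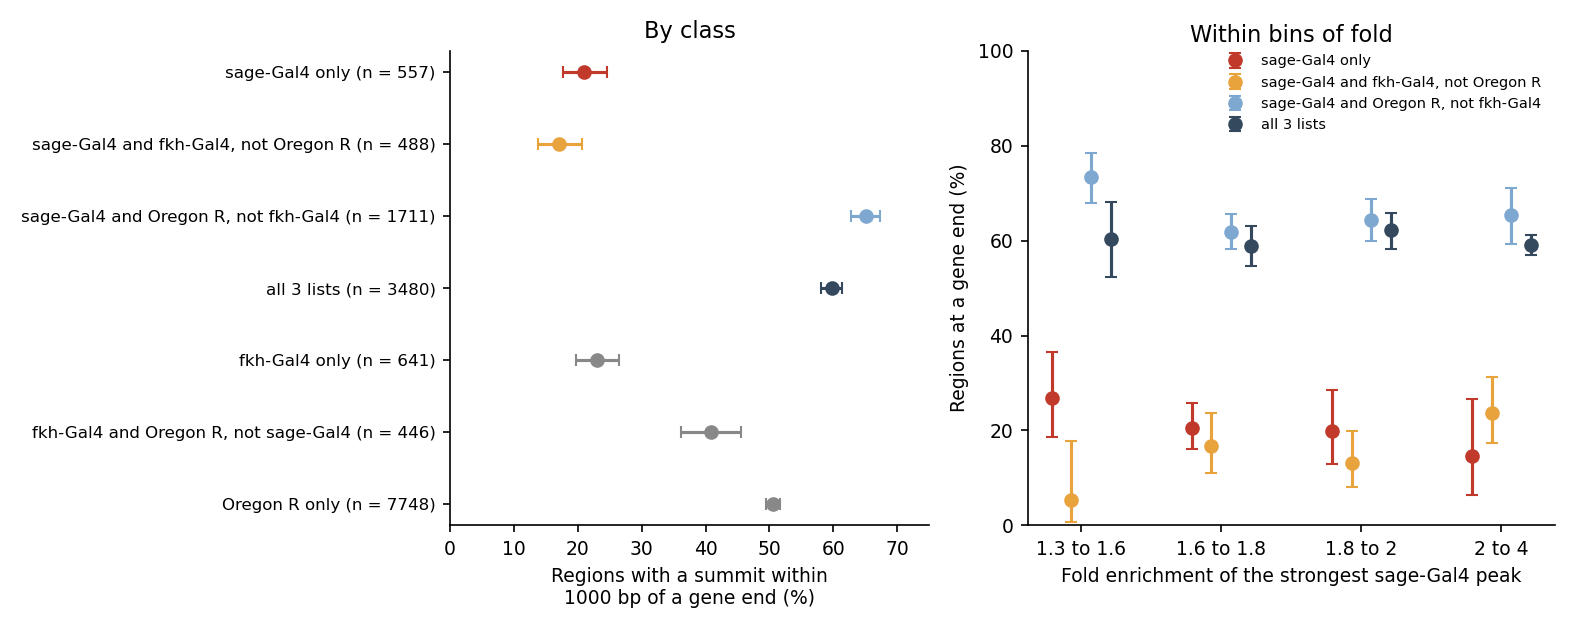
Share of regions with a summit within 1000 bp of a protein-coding gene end (%), for each combination of lists (left) and within bins of the fold enrichment of the strongest sage-Gal4 peak (right); points are shares and bars exact 95% intervals. The sage-Gal4-only regions, at 21.0%, lie near the other classes without an Oregon R peak and below the classes with one.

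Ends of 155 protein-coding genes lay within 1000 bp of a summit of these regions, which is 1.11% of the 13946 protein-coding genes on the chromosome arms; for regions in all 3 lists it was 24.1%. The highest such regions, beyond Kal1, CG4586 and Cyp6v1, were at CG31676 (fold 2.20), Trf4-2 (2.1), a non-canonical poly(A) polymerase gene, Madm (2.07), which encodes a pseudokinase, nsl1 with CG9593 (2.07), of the NSL histone acetyltransferase complex, Ag5r2 (2.07) and Tim17b (2.0), of the mitochondrial import machinery. These were chosen after their values were seen. Cytosolic ribosomal protein genes were matched by symbol. Of 92, 3 had an end at one of the regions, against 1.11% of all protein-coding genes: RpL27 (fold 1.6), RpL5 (1.66) and RpS23 (1.58). In that order, the nearest Oregon R peak was 315, 20 and 280 bp from the region. The count is too small to be read as a difference.

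None of the genes in the 3 lists of secretory pathway genes was among the 155. The lists of COPI, COPII and Golgi traffic (38 genes matched), of ER translocation and signal peptide processing (21) and of ER folding and glycosylation (22) held 81 genes, and 0 of 81 had an end at a sage-Gal4-only summit. A count of 0, taken as allowing up to 3 counts, allows a share of up to 3.70%, which includes the 1.11% of all genes. Regions of all 3 lists were at 72 of the same 81 genes (88.9%), and regions shared with Oregon R but not fkh-Gal4 were at 6. These gene ends thus left little room for a region of sage-Gal4 alone, so the 0 is largely tied to the rule. None of the 81 gene spans held a sage-Gal4-only summit. In the list of the unfolded protein response and ER degradation, 0 of 13 genes had an end at one, but 2 held one inside, where 2.55% of all protein-coding gene spans (356) did: Ire1, the ER stress sensor (fold 1.64), and crc, the ATF4 gene (1.65, 42 bp from an end of a neighbouring gene), which also held 2 regions of all 3 lists.

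In the lists for the salivary gland and other tissues, small numbers of genes held a region inside. Over all protein-coding genes 2.55% of spans held one, and the tissue lists with any ranged from 5.26% to 13.3%. Shares of spans move with gene length, as given below, and the lists were not matched for it. Among 16 salivary gland transcription factors 1 span held one, that of bowl, a zinc finger gene also listed for the gut (fold 1.68, 5904 bp from the nearest gene end). Of 17 salivary gland differentiation genes 2 did: ps, which encodes an RNA binding protein (1.55), and cv-c, a RhoGAP gene (1.64). None of the 16 trachea genes or 17 muscle genes did, but these lists are too short to tell 0 apart from 2.55%. Among gut genes lab (1.62) joined bowl, 2 of 17. In the epidermis list kkv, the chitin synthase gene, had a summit 45 bp from a gene end (1.55) and ab, a zinc finger gene, had one inside (2.0), 2 of 15. Among 22 neuron genes Nrg, a cell adhesion gene, held 1 (1.63) and Unc-76 held 2 (highest fold 2.50). The single gene of 19 in hemocytes and fat body was ush, a cofactor gene of GATA factors, with 2 (highest 1.77).

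Regulatory gene families held a few of the regions. Of 76 homeobox genes 3 spans held a summit: pros (fold 2.05), Antp (1.95) and lab. Of 42 bHLH genes, tai held 4 summits inside (highest fold 2.08) and sima, the HIF alpha gene, 2 (highest 1.67), and emc, an inhibitory HLH gene, had an end at one (1.66, 696 bp). Of 37 signalling ligands, dpp, a BMP gene (1.85), and pyr, an FGF gene (1.54), held one. Over all 16 lists, 2 of 369 genes had an end at a region (0.542%, against 1.11% of all genes) and 17 held one in the span (4.61%, against 2.55%). A share of spans moves with gene length: 9.21% of genes of 10 to 30 kb held a summit, 16.8% of those of 30 to 60 kb and 28.4% of those of 60 to 120 kb.

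None of 15 genes whose sequences fly expression constructs or their marker genes commonly carry had a region within 1000 bp. They were CrebA, fkh, sage, w, v, ry, y, Hsp70Aa, Hsp70Ab, Hsp70Ba, Hsp70Bb, Hsp70Bbb, Hsp70Bc, fs(1)K10 and alphaTub84B. The nearest were 1807 bp from fkh and 2560 bp from w, an eye colour gene; for sage itself the nearest was 159847 bp away and for CrebA 213441 bp.

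The longest run of the 557 was inside Pdp1, which encodes a bZIP activator of the PAR family that acts in the circadian clock. On 3L from 7858375 to 7865614, 10 sage-Gal4-only regions followed one another with no region of another class between them, and they covered 3652 of the 7240 bp (50.4%). Their folds, along the chromosome, were 1.62, 1.99, 1.71, 2.02, 1.62, 1.84, 1.68, 1.66, 1.72 and 1.58, and their widths were 152 to 743 bp. The 2 highest, with −log10 q of 5.82 and 6.25, were the second and the fourth. Some neighbours stood close, such as the region that ended at 7861217 and the one that started at 7861300. Each called peak counts as a region here, so the count of 10 depends on where the caller separated peaks. The run started 46.9 kb from the lower end of the gene, and the summits were 1949 to 8871 bp from the nearest gene end.

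In the whole of Pdp1 there were 18 sage-Gal4 peaks, 4 fkh-Gal4 peaks and 14 Oregon R peaks, and none of the fkh-Gal4 or Oregon R peaks fell in the run. The highest peaks in the gene had folds of 2.87 with sage-Gal4, 1.95 with fkh-Gal4 and 2.76 with Oregon R. The longest run was 4 among the fkh-Gal4-only regions and also among regions of both drivers without Oregon R; among regions shared by sage-Gal4 and Oregon R but not fkh-Gal4 it was 5, and among regions of all 3 lists it was 8. Oregon R alone, with 7748 regions, had runs of up to 29.

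**Figure D4:**
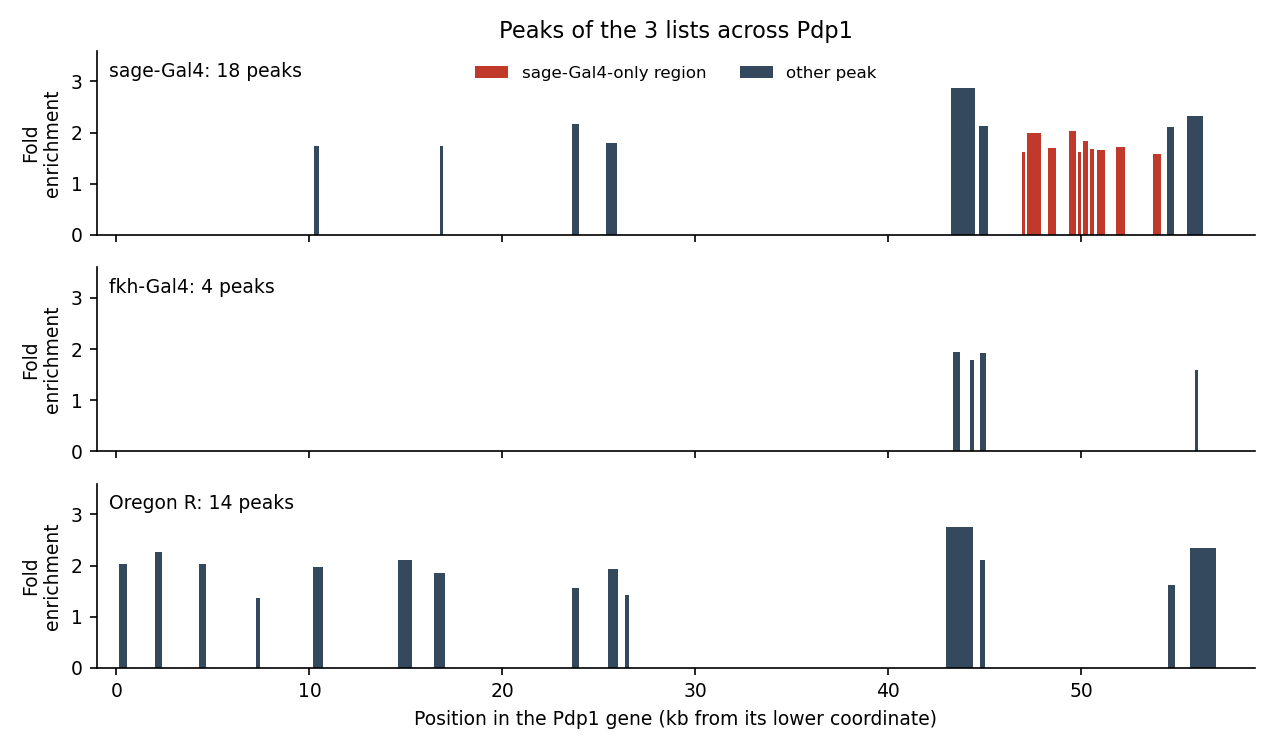
Peaks of the sage-Gal4, fkh-Gal4 and Oregon R lists across the Pdp1 gene, with the position in kb from the lower end of the gene (horizontal axis) and the authors' fold enrichment at the summit (vertical axis); each bar spans 1 peak. The 10 sage-Gal4-only regions stand together in a 7240 bp stretch without a peak in the other lists.

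Such groups were the exception. Most regions, 429 of 557, stood alone between regions of other classes, 42 pairs were side by side, and 11 runs of 3 or more held 44 regions. Besides Pdp1, a run of 5 took in all sage-Gal4 peaks of the Y chromosome, spread over 2113814 bp, with folds of 1.72, 2.15, 2.21, 2.28 and 2.07 along the chromosome; on Y there were 0 peaks with fkh-Gal4 and 4 with Oregon R. A run of 4 spanned 1999 bp in trio, a guanine nucleotide exchange factor gene of axon guidance, with folds of 1.68 to 1.82, and another of 4 lay at CG46491 with folds of 1.64 to 1.88. Runs of 3 were inside tna and at Cyp6v1, at and inside Eip75B, and at CG14454. The remaining runs of 3 were near l(3)80Fj, in and around Myo81F over 839377 bp, and on a sequence outside the arms.

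Spans of 19 genes held 3 or more of the regions (0.136% of protein-coding genes), together 71 of the 557. After Pdp1 with 10 came trio with 5 of its 6 sage-Gal4 regions and tna with 5 of 11. Then came ftz-f1, which encodes an orphan nuclear receptor, with 4 of 22, EcR with 4 of 20 and tai, which encodes a coactivator of the ecdysone receptor, with 4 of 17. The others held 3 each. Among them were Eip75B, an ecdysone-induced nuclear receptor gene (3 of 19), kibra, of the Hippo pathway (3 of 7), nkd, an antagonist of Wnt signalling (3 of 8), and chrb, an inhibitor gene of TOR signalling (3 of 5). TP53INP, Dmtn, cdi, Lmpt, cpo, mtgo, Svil and CG7220 held 3 of 6 to 8. In stol, which encodes a protein related to calcium channel subunits, all 3 sage-Gal4 regions were sage-Gal4-only, with folds of 1.45 to 1.66.

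Per length of gene the order differed. CG7220 had 4.26 regions per 10 kb, chrb 2.61, TP53INP 2.19, Dmtn and Pdp1 1.79 each and trio 1.29, while Eip75B had 0.264 and Svil 0.247. Over all protein-coding genes it was 0.0458 per 10 kb. These genes were listed because they hold 3 or more regions, so their high densities follow from that choice. Genes with a sage-Gal4-only summit inside and genes with an fkh-Gal4-only summit inside had 76 in common, 21.3% of the 356 and 18.5% of the 410, where the 410 are 2.94% of all protein-coding genes. With regions of both drivers without Oregon R, 88 genes were in common, 24.7% of the 356 and 28.4% of the 310, where the 310 are 2.22% of all genes. Long genes held a summit more often, as given above, and the overlap was not set against genes of like length. Of these genes, ftz-f1 held 4 sage-Gal4-only and 5 fkh-Gal4-only regions.

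**Figure D5:**
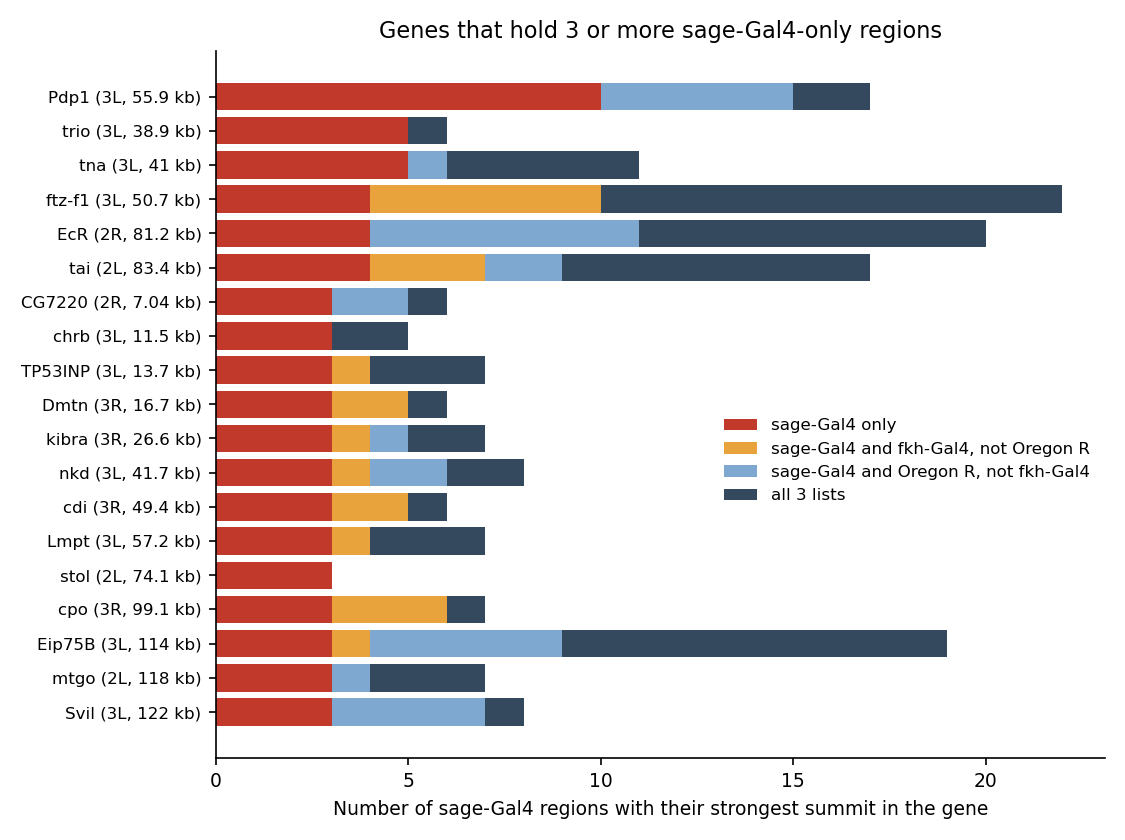
Number of merged regions with a sage-Gal4 peak whose strongest summit lies in the gene (horizontal axis) for the 19 genes with 3 or more sage-Gal4-only regions, with chromosome arm and gene length in kb; colours give the lists that share the region. Pdp1 holds 10 sage-Gal4-only regions of 17, and ftz-f1 4 of 22.

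Across the chromosomes the regions were most frequent on 3L. This arm held 167 of 557 (30.0%, interval 26.2 to 34.0%), compared with 21.8% of all sage-Gal4 regions and 19.4% of the regions in all 3 lists; without the Pdp1 run it was 28.7% (24.9 to 32.7%). The 10 gene spans with 3 or more regions on this arm held 42 of the 167. The fkh-Gal4-only regions and those of both drivers without Oregon R were on 3L at 25% and 25.8%. The X chromosome held 62 (11.1%, 8.64 to 14%), against 16.8% of all sage-Gal4 regions, 19.7% of regions in all 3 lists, 16.5% of the fkh-Gal4-only regions and 11.9% of those with both drivers but not Oregon R. On 2R there were 85 (15.3%), on 2L 107 (19.2%), on 3R 122 (21.9%) and on chromosome 4 there was 1.

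Among non-coding genes, 40 of 3861 (1.04%) had an end within 1000 bp of a summit, which is close to the 1.11% of protein-coding genes. They included 7 of 290 transfer RNA genes (2.41%): tRNA:Arg-ACG-1-1 and tRNA:Lys-CTT-1-1, both within the EcR span, tRNA:Leu-CAA-2-2, tRNA:Ser-CGA-1-4 and the neighbours tRNA:Thr-CGT-1-1, tRNA:Thr-CGT-1-2 and tRNA:Thr-CGT-1-3. The tRNA:Thr-CGT genes were all at a single region, on 3R from 20891600 to 20891898. Those in EcR were both at the same neighbouring regions, on 2R from 6141592 to 6141852 and from 6142844 to 6143199. The 7 is therefore a count of genes and not of separate loci. There were 3 of 269 small nucleolar RNA genes and 1 of 260 microRNA genes, mir-308.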

How the data were processed

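Chromatin was from embryos collected over 8 h and aged for 11 h, per the labels. The submitters' processing notes name BWA, dm6 and, for the peaks, MACS2 2.1.0.20140616. The use of the inputs in the calls is not stated there. Per peak, the deposited lists hold an integer score (not used), a summit fold given as a ratio, and the −log10 p and −log10 q (p-value and q-value) from the authors' caller. The summit offset is the other deposited column, in bp. The lists hold peaks above a −log10 q of about 1.3, so a region without a peak is one not called, and read depth is unknown.

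Peaks of all sequences were merged at 1 bp, and a region's strongest sage-Gal4 summit stood for it (that of fkh-Gal4 or Oregon R where it had none). Genes were 13946 protein-coding genes of the RefSeq table; a gene was at a region when its start or end lay within 1000 bp of the summit. No test was made, since each group has 1 library and membership uses the calls. The members and the 16 gene lists were chosen with earlier results of these data known. Genes were named by rule: the 12 highest regions, the 4 nearest the limit on each side, list genes (up to 4 per list), spans with 3 or more regions and construct loci. The planned motif search and the naming of regions in promoter windows were not run, as no genome sequence was used here. Merging was run on simulated lists with planted regions placed where no overlap was possible. All were found, which checks the code and does not test the 1 bp limit. Software was Python 3.11.15 with matplotlib 3.10.9, scipy 1.17.1, pandas 2.3.3 and numpy 2.4.6.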

Additional observations from a re-analysis of the deposited data

How the results depend on the processing

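No paired analysis was possible because each group has 1 library. The alternatives were other overlap rules, q thresholds, windows and sequences; leaving out the Pdp1 run, distance from other lists and the values for 3L were added after the data were examined.

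The number of sage-Gal4-only regions, 557, was 3702 with a reciprocal overlap of 50% and 2583 with summits within 150 bp, 202 with a −log10 q of at least 10 in every list and 4 with it in the sage-Gal4 list alone. In the same order of alternatives, the median fold was 1.73, 1.73, 2.40 and 2.53, the share at gene ends 58%, 54.3%, 40.1% and 50%, and the share on X 17.6%, 18.4%, 16.8% and 50%. The first 2 rules add sage-Gal4 peaks that overlap a peak of another list, and the stricter q in every list removes partners below it. The share on 3L was 21.8% and 21.4% under the overlap rules and 25% for the 4 regions. The median fold was 1.82 with a −log10 q of at least 3 in every list and 1.74 with other peaks widened by 500 bp.

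The share at gene ends was 12.4% with a window of 500 bp and 31.8% with 2000 bp, and 16.3% for regions over 1000 bp from another list. Genes at the regions, 155, were 2974 with reciprocal overlap, 2101 with summits, 5 with the sage-Gal4 list alone at the stricter q, 91 with widened peaks, 78 with 500 bp and 283 with 2000 bp. Of the genes in the 16 lists, 2 as reported, the counts were 91, 67, 10 and 0 under the first 4 alternatives, 6 with a −log10 q of at least 3, and 1 with widened peaks, 1 with 500 bp and 4 with 2000 bp. In Pdp1 6 regions met a −log10 q of at least 3 and 0 a −log10 q of at least 10. Of the 12 highest regions, 11 were also the highest by −log10 q. The planned search for an ACGTG core was not run.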

Other observations

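Several genes with 3 or more sage-Gal4-only regions act in the ecdysone response, the steroid hormone pathway of moulting and of the death of the larval salivary gland. A list of 12 such genes was put together after the values were seen, so it has no test. Spans of 6 of the 12 held a region: EcR, tai and ftz-f1 with 4 each, Eip75B with 3, and br (fold 1.77) and Hr3 (1.91) with 1 each. The other 6, usp, Eip74EF, Eip78C, Hr4, Hr39 and Eip93F, held none, although Eip74EF had 16 sage-Gal4 regions and Hr4 13. The 12 spans, with a median length of 63.0 kb, held 126 sage-Gal4 regions of every class, of which 17 were sage-Gal4-only. Since genes seen to hold 3 or more regions led to the list, these counts follow from the choice and are not set against other genes.

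Regions far from any other list were few. In all, 22 were more than 100000 bp from every fkh-Gal4 and Oregon R peak or on a sequence with none. Of these, 8 were on sequences outside the chromosome arms and 4 on Y. Such sequences held 1.44% of the 557 but 0.192% of all sage-Gal4 regions, and Y held 0.898% and 0.0802%. How reliably reads can be placed on these sequences, on Y or at the other far regions was not tested.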
